A study of Rattus norvegicus with 16 samples.

Results

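The Hox cluster genes are the homeobox genes of the HoxA, HoxB, HoxC and HoxD clusters, and they were taken from the array by their symbol, Hox followed by a cluster letter and a paralog number. This gave 30 genes measured by 33 probes, out of 26113 distinct gene names or identifiers and 30367 probes, and for the 3 genes with 2 probes, Hoxc5 and Hoxc6 among them, the brighter probe in the tissue channel was used. All 30 genes were followed, whether their signal was detected or not. Paralogs with the same number are copies of one ancestral gene, and paralogs with low numbers are called anterior and those with high numbers posterior.

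Hox proteins are transcription factors that give cells their position along the body axis. In the gut they are made mainly in the mesenchyme, the layer that forms smooth muscle and connective tissue, and in enteric neurons, and posterior paralogs are typical of the hindgut. Their genes are held silent or active by Polycomb and trithorax complexes, are induced by retinoic acid and Cdx proteins, and their products bind DNA together with the TALE homeodomain proteins Pbx and Meis.

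Gene expression was measured in suckling offspring of Wistar Han rats aged 14 to 21 days during treatment, which were given saline solution (group C) or obestatin (group OH) enterally 2 times daily. Obestatin is a peptide released from the same precursor as ghrelin, and its dose was 250 nmol/kg BW. Stomach and middle intestine of both treatments made 4 groups, each with 4 two-colour Agilent arrays. Every array carried the tissue of 1 rat in Cy5 and a common reference pooled from the RNA of all rats in Cy3, and the dyes were not swapped. Both tissues were taken from 4 randomly chosen rats per treatment, so a stomach and an intestine may come from the same rat.

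All values are log2 ratios of processed signals, Cy5 over Cy3, so 0 means equal signal in the tissue and in the reference. A difference of 1 on this scale is a change of 2-fold. Groups were compared in limma over all 16 arrays, over the 21170 probes whose Cy5 signal was marked well above background on every array of 1 group or more, and adjusted p (Benjamini-Hochberg) had to be under 0.05. Levels of different probes were not compared with each other.

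Each group lay on 1 slide of its own. Both C slides were scanned on one day and both OH slides on another, and the median raw Cy3 signal of the reference was 188 to 195 scanner units on the C arrays and 341 to 399 on the OH arrays. Treatment, slide and scan day therefore cannot be told apart, whereas the stomach and the intestine of one treatment shared a scan day but lay on different slides, so tissue and slide cannot be told apart either. The tissue labels were borne out by 10 stomach mucosa genes, whose mean log2 ratio was 3.03 ± 0.16 in C stomach but -3.75 ± 0.13 in C middle intestine, and by 12 enterocyte genes, with -3.08 ± 0.11 and -0.01 ± 0.42, respectively (SD, n = 4). Smooth muscle genes varied strongly between the OH stomach arrays, as described with the genes they moved with. The file of the first OH stomach array holds rounded signals, with 57.6% of its processed Cy5 values whole numbers compared with 0.0635% to 0.137% on the other arrays, which is coarse for dim probes. Signals not above background are surrogate values set by the scanner software, 15.2% to 21% of spots per array in Cy5.

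Hox probes on this array fall in different parts of their transcripts, and 7 of the 30 probes were found to encode part of the homeodomain. They were found by short peptide motifs of the homeodomain, which can miss other parts of it, so 7 is a minimum. The probes of Hoxa6 and Hoxb8 are shown because they are the only members of different genes that share a run of at least 12 bases, which is set in capitals and is 17 bases long.

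Hoxa6: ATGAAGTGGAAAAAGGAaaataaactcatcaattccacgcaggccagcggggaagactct

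Hoxb8: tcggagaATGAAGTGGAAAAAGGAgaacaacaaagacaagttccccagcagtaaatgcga

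The second probe of Hoxc6 is shown because it lies upstream of the homeobox, with the bases that encode the core of the Pbx-binding hexapeptide in capitals, while the brighter probe used for Hoxc6 lies further downstream.

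Hoxc6, second probe: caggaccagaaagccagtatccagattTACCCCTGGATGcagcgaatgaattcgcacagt

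None of the 7 genes whose probe held such a homeodomain motif, Hoxb1, Hoxa6, Hoxb8, Hoxc12, Hoxd12, Hoxc13 and Hoxd13, was well above background on all arrays of any group, and 4 of them were so on at least 1 array. Whether the place of a probe in the transcript bears on its detection was not tested. Of the 33 probes, 25 carried an accession found in RefSeq, and for 1 of these genes the RefSeq name was another than that of the array. The probe named Hoxa9, on chromosome 4 from 80515641 to 80515700 of the rn4 build, carries the accession of Hoxa7 in RefSeq. It is called the Hoxa9 probe here, and its paralog number is open to this doubt.

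Of the 30 genes, 9 had a Cy5 signal well above background on all 16 arrays, 12 on some and 9 on none. The 9 detected throughout were Hoxa2, Hoxb4, Hoxc4, Hoxd4, Hoxb6, Hoxc6, Hoxb7, the Hoxa9 probe and Hoxd9, so they run from the anterior to the middle part of the clusters. Among those never detected were Hoxb1, Hoxb3 and Hoxd3 at the anterior end and Hoxc10, Hoxa11, Hoxc12, Hoxb13 and Hoxd13 at the posterior end.

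By paralog number, 7 of the 10 genes of paralogs 4 to 8 were detected on all 4 arrays in each of the 4 groups. Of the 8 genes of paralogs 1 to 3, 3 were so detected in OH middle intestine and 1 in each of the other groups. Of the 12 genes of paralogs 9 to 13, 2 were so detected in every group, the Hoxa9 probe and Hoxd9. In all, OH middle intestine had 12 genes detected on every array and each of the other groups had 10. Requiring only 1 array, the numbers were 16 and 18 in C and OH stomach and 18 and 15 in C and OH intestine, so the order of the groups was not kept.

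**Figure D1:**
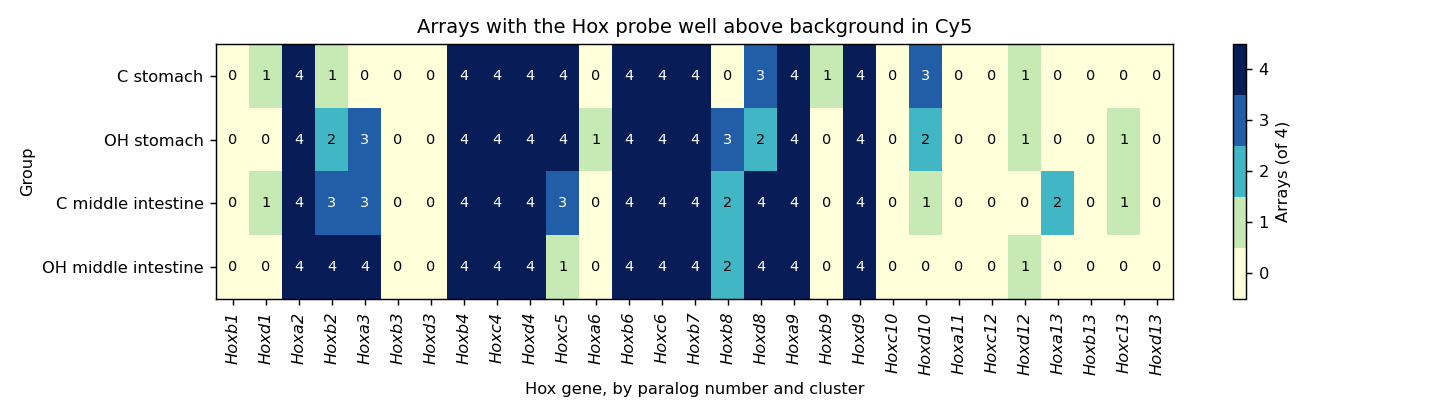
Number of arrays, of 4, on which the probe of each Hox gene plotted (columns, ordered by paralog number and cluster, 1 member left out) was well above background in the Cy5 tissue channel, for each group (rows). Detection is densest from Hoxb4 to Hoxd9, and Hoxa3 and Hoxb8 were detected on 0 of 4 C stomach arrays and on 2 to 4 arrays of the other groups.

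The genes detected on part of the arrays differed in where this happened. Hoxa3 was detected on 0 of 4 C stomach arrays, on 3 of OH stomach, on 3 of C and on 4 of OH middle intestine. Hoxb8 was detected on 0, 3, 2 and 2 arrays of these groups, and Hoxb2 on 1, 2, 3 and 4. Hoxc5 showed another order, with 4 arrays in each stomach group, and 3 and 1 arrays in C and OH intestine, and Hoxd10 was detected on 3, 2, 1 and 0 arrays.

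The first comparison was between the tissues of the C rats, and 6 Hox genes were higher in C middle intestine than in C stomach while 0 were higher in C stomach. They were Hoxb6, Hoxb7, the Hoxa9 probe, Hoxa3, Hoxb2 and Hoxd8, with log2 differences from 2.13 down to 0.94. Of the 30 genes, 13 entered this test, and over all probes tested 22.3% were called higher in C middle intestine and 22.7% higher in C stomach. A gene could enter through the tissue in which it is high. Hoxa3, Hoxb2 and Hoxd8 entered only through intestinal groups, and Hoxc5, which was not called, only through stomach groups. The count is therefore a description, and so is the adjusted p of Hoxa3, Hoxb2 and Hoxd8. The median difference of all 30 genes was 0.56, compared with 0.09 for all 30367 probes, and 24 of the 30 were above 0 and 6 below. These 30 include 17 genes left out of the test as dim. The filter kept 43.3% of the Hox genes but 69.7% of all probes, so the medians come from sets with unlike shares of dim probes.

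Hoxb6, a middle paralog that patterns the trunk and the gut mesenchyme, had log2 ratios of -1.80, -1.56, -1.02 and -1.74 in C stomach and of 0.35, 0.83, 0.21 and 1.00 in C middle intestine. All intestinal arrays lay above all stomach arrays. The difference was 2.13 (standard error 0.45, adjusted p = 0.0015 in limma). The exact permutation test, two-sided, gave p = 0.029, the smallest that 4 arrays against 4 allow, here and for Hoxb7, the Hoxa9 probe, Hoxa3 and Hoxb2. Its probe lies on chromosome 10 of rn4 from 85033478 to 85033537.

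Hoxb7, its neighbour in the HoxB cluster, had log2 ratios of -2.04, -1.72, -1.18 and -2.0 in C stomach and 0.15, 0.42, 0.21 and 0.69 in C middle intestine. Again the groups did not overlap, and the difference was 2.10 (standard error 0.41, adjusted p = 0.00078 in limma). The probe lies on chromosome 10 from 85020791 to 85020850.

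The Hoxa9 probe gave -2.0, -2.20, -1.22 and -2.11 in C stomach and 0.13, -0.01, -0.16 and 0.31 in C middle intestine, without overlap, a difference of 1.95 (standard error 0.47, adjusted p = 0.0039 in limma). The difference of Hoxb6, Hoxb7 and the Hoxa9 probe lay in the tissue channel, since Cy5 differed by 2.20, 2.15 and 2.08, whereas Cy3 differed by 0.07, 0.04 and 0.12, respectively. Among the C stomach arrays, the third was the highest for each of these genes.

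The anterior paralogs of the hindbrain and neck region of the embryo, Hoxa3 and Hoxb2, were also called. Hoxa3 had log2 ratios of -1.63, -2.46, -1.73 and -0.97 in C stomach and 0.15, 0.02, -0.23 and 0.15 in C middle intestine. The groups did not overlap, with a difference of 1.72 (standard error 0.41, adjusted p = 0.0034 in limma). Hoxa3 was not well above background on any C stomach array and was so on 3 of 4 intestinal arrays. Its mean Cy5 signal in C middle intestine was 3.09-fold above a floor for C stomach. This floor was, per stomach array, the higher of the lowest signal well above background and its own signal after Aquantile scaling. Arrays of the brighter group that were not well above background entered at their own signal, so such values are not strict bounds. They are also open to dye bias.

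Hoxb2 had log2 ratios of -1.44, -2.81, -1.66 and -1.67 in C stomach and -0.27, -0.10, -0.61 and -0.14 in C middle intestine, a difference of 1.62 (standard error 0.45, adjusted p = 0.0098 in limma). The groups did not overlap, and the second stomach array was far below the other 3. The probe of Hoxa3 lies on chromosome 4 from 80469656 to 80469715, and that of Hoxb2 was not placed on the genome by the array design.

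Hoxd8, the HoxD member of the paralogs next to Hoxb7, showed the smallest called difference, 0.94 (standard error 0.34, adjusted p = 0.035 in limma). Its log2 ratios were -1.27, -1.23, -0.79 and -0.63 in C stomach and -0.24, 0.53, -0.71 and 0.25 in C middle intestine. The third intestinal array lay within the stomach range. The call was lost without any one of 4 arrays, C stomach 1, C stomach 2, C middle intestine 2 or C middle intestine 4, with adjusted p between 0.081 and 0.11 in limma.

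**Figure D2:**
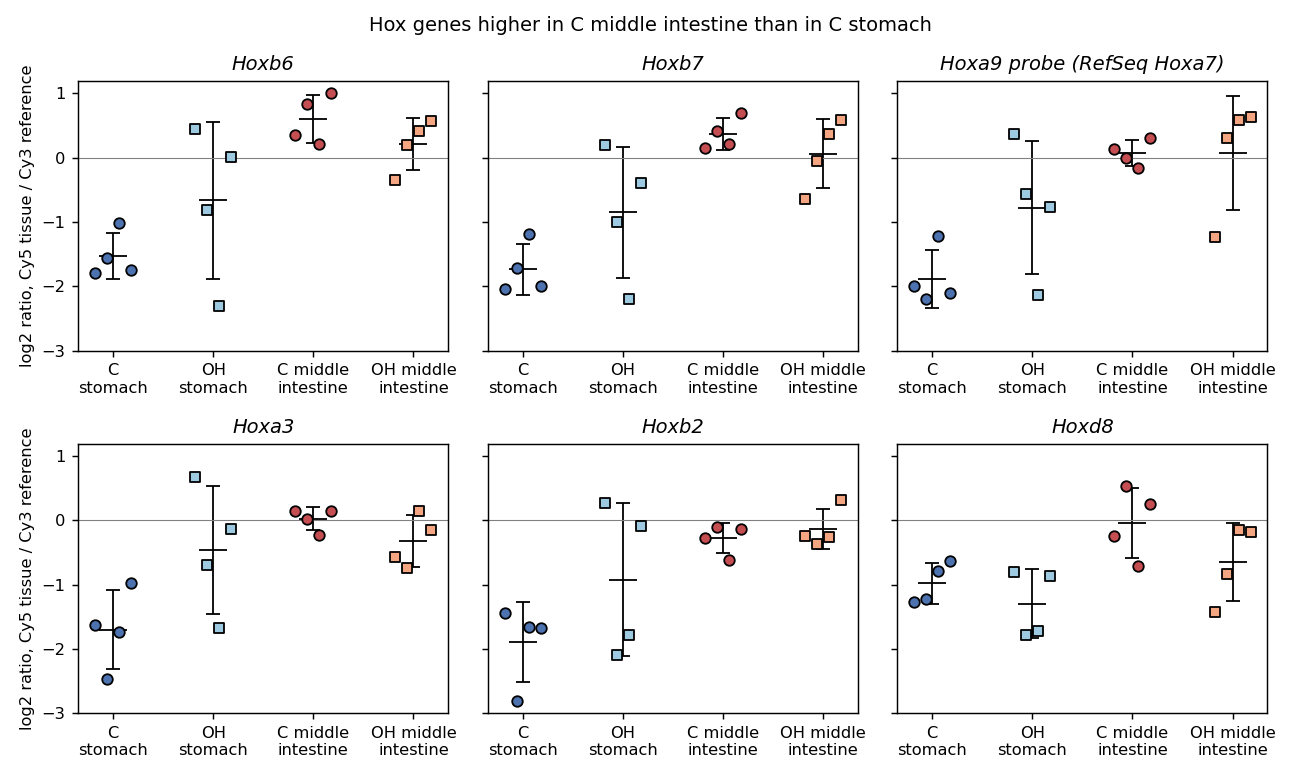
Log2 ratios of tissue to reference for the 6 Hox genes called between C stomach and C middle intestine, 1 point per array, with the group mean and SD (bars, n = 4). The C groups are apart for every gene but Hoxd8, and the OH stomach arrays spread from -2.31 to 0.45 for Hoxb6 but only from -1.78 to -0.81 for Hoxd8.

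The 7 other Hox genes that entered the test were not called between the C tissues. Hoxc6 differed by 0.90 (standard error 0.39, adjusted p = 0.074 in limma) on the brighter probe and by 0.36 on the hexapeptide probe, Hoxb4 by 0.58 (adjusted p = 0.23) without overlap, and Hoxa2 by 0.55 (adjusted p = 0.38). Hoxd4, with 0.01 (standard error 0.15), Hoxc5 with -0.19 (standard error 0.24), Hoxc4 with -0.21 (standard error 0.29) and Hoxd9 with -0.46 (standard error 0.40) were near or below 0. By cluster, 3 of 4 tested genes were called in HoxB, 2 of 3 in HoxA, 1 of 3 in HoxD and 0 of 3 in HoxC.

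Whether paralogs of 1 number differed in this was tested on the difference of 2 genes within each array, for 7 pairs in each treatment. In C rats, the Hoxa9 probe minus Hoxd9 went from -1.58 ± 0.72 in stomach to 0.83 ± 0.11 in middle intestine (SD, n = 4). Hoxb6 minus Hoxc6 went from -1.16 ± 0.55 to 0.07 ± 0.12, and Hoxb2 minus Hoxa2 from -0.50 ± 0.27 to 0.57 ± 0.42 (SD, n = 4). These 3 pairs and Hoxb4 minus Hoxc4 each had tissues that did not overlap. Each had p = 0.029 in the exact permutation test, two-sided, and 0.08 after adjustment over the 14 comparisons, so none passed. As 0.029 is the smallest p that 4 arrays against 4 allow, no pair could pass alone after this adjustment, whatever its difference. That none passed therefore decides nothing. In OH rats, Hoxb2 minus Hoxa2 was the only one of the 7 pairs whose tissues did not overlap (difference 0.82, p = 0.029, exact permutation test, two-sided, adjusted 0.08), while p in the same test was 0.057 for the Hoxa9 probe minus Hoxd9, 0.29 for Hoxb6 minus Hoxc6 and 0.51 for Hoxb4 minus Hoxc4. If the Hoxa9 probe is read as Hoxa7, its partner is Hoxb7, and the difference of this pair changed by -0.15 between the C tissues (p = 0.43, exact permutation test, two-sided).

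No order by paralog number held across settings. The median difference in C rats was 0.42 for paralogs 1 to 3, 0.75 for paralogs 4 to 8 and 0.45 for paralogs 9 to 13. Over the tested genes alone, of which paralogs 1 to 3 hold 3 and paralogs 9 to 13 hold 2, it was 1.62 and 0.75 in these outer groups. Spearman's rho between the paralog number and the tissue difference was 0.13 over the 13 genes tested and 0.05 over all 30, given as a description, since genes of one cluster are neighbours and share arrays. With the Hoxa9 probe counted as paralog 7, rho over the 13 genes was 0.09.

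**Figure D3:**
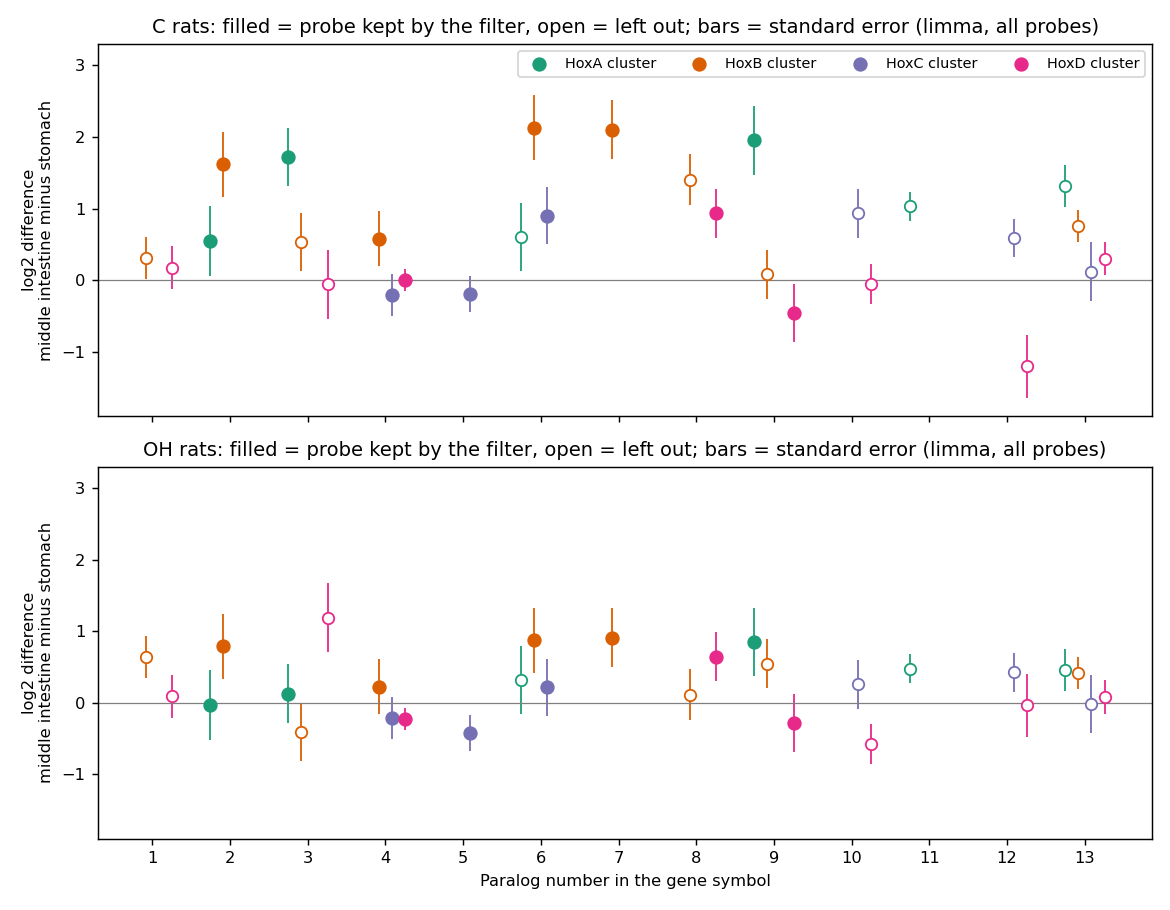
Log2 difference of middle intestine minus stomach for the Hox genes, 1 member left out, against their paralog number, for C rats (top) and OH rats (bottom), coloured by cluster, with the standard error from the limma fit over all probes. Filled points passed the filter on dim probes. The called genes of C rats reach from Hoxb2 to the Hoxa9 probe, and in OH rats Hoxb7 was at 0.91 and Hoxd3, which did not pass the filter, was the highest at 1.19.

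Without the filter on dim probes, 10 of the 30 genes were higher in C middle intestine, with 15.7% of all probes called in this direction. Hoxd8 was no longer among them, at an adjusted p of 0.050, and Hoxb8, Hoxc10, Hoxa11, Hoxa13 and Hoxb13 were added. Hoxc10 was called at the threshold itself, with the same rounded adjusted p of 0.050 in limma as Hoxd8. Hoxb8 had log2 ratios of -1.45, -1.46, -0.83 and -1.9 in C stomach and 0.52, -0.34, -0.69 and 0.47 in C middle intestine. It was detected on 2 intestinal arrays and on 0 stomach arrays, and its Cy5 in C middle intestine was 3.26-fold above the C stomach floor, taken as for Hoxa3 (adjusted p = 0.008 in limma, all probes).

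Hoxa13, a posterior gene of the hindgut and urogenital tract, was detected on 2 of 4 C middle intestine arrays and nowhere else. Its mean signal in C middle intestine was 2.06-fold above the C stomach floor (adjusted p = 0.0033 in limma, all probes). Its log2 ratios were low throughout, at -4.45, -4.08, -4.19 and -3.95 in C stomach and -3.47, -2.55, -2.61 and -2.80 in C middle intestine. Hoxc10, Hoxa11 and Hoxb13 were on no array well above background in Cy5, so no fold is given for them. Their Cy5 differed by 0.79, 0.81 and 0.90, respectively. Hoxb1, Hoxb3, Hoxd3, Hoxc12 and Hoxd13, also never detected and not called, had Cy5 differences of 0.54 to 0.96. The calls of Hoxc10, Hoxa11 and Hoxb13 therefore do not show that these genes are expressed in either tissue. In the other direction, Hoxd12 differed by -1.20 between these groups and did not pass (adjusted p = 0.053 in limma, all probes).

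In the OH rats, 0 Hox genes were called higher in OH middle intestine than in OH stomach, where 19.1% of the probes tested were, and 0 were called higher in OH stomach, where 19.2% were. Without adjustment, p was under 0.05 for 46.7% of all probes tested and for 1 of the 13 Hox genes, Hoxb7. Its difference was 0.91 (standard error 0.41, adjusted p = 0.092 in limma), and Hoxb6 followed with 0.87 (adjusted p = 0.14) and the Hoxa9 probe with 0.85 (adjusted p = 0.17). The median over the 30 genes, dim ones included, was 0.22 in OH rats, and 20 were above 0.

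The OH stomach arrays lay far apart. Hoxb6 had 0.45, -0.81, -2.31 and 0.01 there, Hoxb7 had 0.20, -1.0, -2.19 and -0.40, and the Hoxa9 probe had 0.36, -0.56, -2.14 and -0.77. For all 3 genes the first and the fourth of these arrays lay within the range of OH middle intestine, and the third lay near or below the lowest C stomach array. In OH middle intestine the values of Hoxb6 and Hoxb7 were closer together, at -0.35, 0.19, 0.42 and 0.57 for Hoxb6 and -0.64, -0.06, 0.37 and 0.58 for Hoxb7, with the first array the lowest. The Hoxa9 probe ranged from -1.24 to 0.63 there, with an SD of 0.888 compared with 1.035 in OH stomach. Its second OH stomach array also lay within this range.

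The same OH stomach arrays differed in smooth muscle genes, a list of visceral muscle markers such as Myh11 and Actg2. The mean log2 ratio of the 9 genes measured, all of them well above background on all 16 arrays, was 1.04, -1.27, -2.55 and 0.21 in OH stomach. It ranged from -2.51 to -1.29 on the C stomach arrays, while the intestinal arrays ranged from -1.23 to -0.19 in C and from -0.83 to -0.05 in OH. The mean of the 9 Hox genes detected throughout was 0.32, -0.65, -1.54 and -0.20 in OH stomach, in the same order. Fibroblast and stroma genes, with 9 of 9 measured, also had this order there, at 0.42, -1.19, -1.74 and -0.10. The order was not particular to these lists. Striated muscle genes, TALE cofactors and gut mesenchyme regulators had it too, and stomach mucosa genes had the reverse, at 2.23, 2.91, 3.0 and 2.42. Enteric neuron and leukocyte genes had neither order. The part of any of these lists in the Hox values was not tested. In bulk tissue, more cells of a type and more RNA per cell cannot be told apart.

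In the C rats too, the smooth muscle genes were higher in intestine, at -0.54 ± 0.47 compared with -1.96 ± 0.51 in stomach (SD, n = 4), and 3 of the 9 passed the test. Enteric neuron genes were also higher there, with 6 of 9 called and means of 0.06 ± 0.49 in intestine and -0.72 ± 0.18 in stomach, as were 3 of 7 leukocyte genes, with -0.25 ± 0.67 and -1.64 ± 0.13 (SD, n = 4). Fibroblast and stroma genes had -1.04 ± 0.36 in intestine and -1.18 ± 0.51 in stomach, with 1 of 9 called in each direction. Over all probes tested, 22.3% were called higher in C middle intestine and 22.7% higher in C stomach. Striated muscle genes were higher in C stomach, with 7 of 9 called and means of 2.59 ± 2.35 in stomach and -0.58 ± 0.10 in intestine. The second C stomach array stood apart in them, at -0.90 compared with 3.35 to 4.11 on the others, and without it 5 Hox genes were called, Hoxd8 being lost. The part of these cell types in the Hox differences was not tested. The mean smooth muscle ratio of each array was also used as a covariate, a setting chosen after seeing the data. This mean itself differed between the C tissues, so the fit cannot separate smooth muscle from tissue. The fitted C tissue difference was 1.24 for Hoxb7, 1.13 for Hoxb6, 1.09 for the Hoxa9 probe and 0.86 for Hoxa3, with adjusted p from 0.002 to 0.041 in limma. Hoxb2, with 0.69 (adjusted p = 0.10), and Hoxd8, with 0.39 (adjusted p = 0.34), were not called in this fit, and Hoxc4 and Hoxd9 were called higher in C stomach. Of all probes, 21% were then called higher in C intestine and 18.2% higher in C stomach. In OH rats, Hoxb6 and Hoxb7 were called higher in intestine in this fit, as were 21% of all probes.

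**Figure D4:**
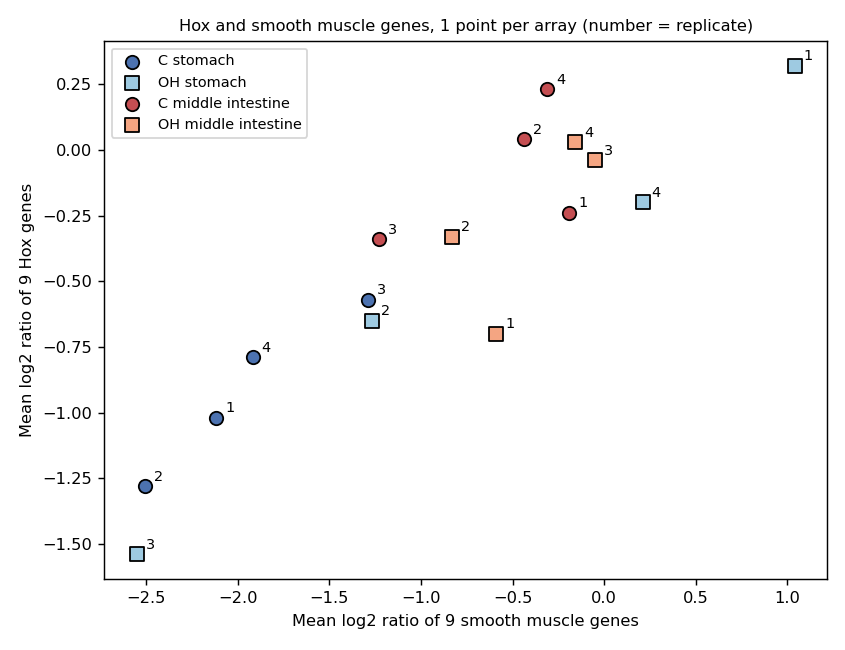
Mean log2 ratio of the 9 Hox genes detected on all 16 arrays against that of 9 smooth muscle genes, 1 point per array, numbered by replicate and coloured by group. OH stomach arrays 1 and 4 lie at the upper right, beside or beyond the intestinal arrays, and OH stomach 3 lies at the lower left with the C stomach arrays.

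Without OH stomach 1 and 4, also chosen after seeing the data, 6 Hox genes were called higher in OH middle intestine than in OH stomach, which were Hoxb2, Hoxb4, Hoxb6, Hoxb7, Hoxd8 and the Hoxa9 probe, and 16.1% of all probes were. Since the arrays left out were those with the highest values of several of these genes, the larger differences follow from the choice. Without OH stomach 1 alone the number was 4 (17.6% of all probes), with Hoxb2, Hoxb6, Hoxb7 and the Hoxa9 probe, and without OH middle intestine 1 it was 2 (17.5% of all probes), Hoxd8 and the Hoxa9 probe. The test of whether the tissue difference itself changed with OH gave 0 Hox genes, as it gave 0% of all probes tested. Without adjustment, 5.85% of all probes tested had p under 0.05, and 1 Hox gene had. This was Hoxa3, whose tissue difference was 1.72 in C and 0.13 in OH rats (difference -1.59, standard error 0.57, unadjusted p = 0.015, adjusted p = 0.84 in limma).

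Between OH and C in stomach, 0 Hox genes passed the threshold in limma, and 0% of all probes did. Without adjustment, 4 of the 13 had p under 0.05, all higher in OH, Hoxa3, the Hoxa9 probe, Hoxb7 and Hoxb2, compared with 10.6% of all probes tested. The log2 ratios of Hoxa3 in OH stomach were 0.68, -0.69, -1.68 and -0.14, against a range of -2.46 to -0.97 in C stomach, so the groups overlapped through the third OH array. The difference was 1.24 (standard error 0.41, adjusted p = 0.33 in limma), since Cy5 was higher by 1.89 and the reference in Cy3 by 0.65.

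The Hoxa9 probe differed by 1.1 in stomach (standard error 0.47, adjusted p = 0.44 in limma), with Cy5 higher by 1.45 and Cy3 by 0.34. Hoxa6, which did not enter the test, had OH stomach arrays at -0.51, -0.24, -0.97 and 0.04, all above the C stomach range of -1.88 to -1.51, but was well above background on only 1 of these 8 arrays. By cluster, the median OH difference in stomach was 0.58 for HoxA, 0.42 for HoxB, -0.07 for HoxC and -0.33 for HoxD. These medians include dim probes, since only 3 of 7, 4 of 9, 3 of 6 and 3 of 8 genes, respectively, entered the test. With 0 genes called in any cluster, they are a description.

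In middle intestine, 0 Hox genes passed the threshold between OH and C in limma, where 0.368% of all probes did. Without adjustment, 0 of the 13 had p under 0.05, compared with 10.5% of all probes tested. The smallest unadjusted p belonged to Hoxc5, a paralog of the middle part of the HoxC cluster, with log2 ratios of 0.71, 0.89, 0.85 and -0.17 in C and 0.59, -0.15, 0.22 and -0.38 in OH. The groups overlapped, with a difference of -0.50 (standard error 0.24, adjusted p = 0.50 in limma), and the second Hoxc5 probe, which was below background, had the opposite sign. Hoxd4 came next with -0.29 (standard error 0.15, adjusted p = 0.56 in limma).

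Without the filter on dim probes, 2 Hox genes were lower in OH middle intestine than in C middle intestine, with 4.54% of all probes called. Hoxa13 had -3.47, -2.55, -2.61 and -2.80 in C and -4.37, -4.13, -3.85 and -4.10 in OH, without overlap, a difference of -1.26 (standard error 0.29, adjusted p = 0.023 in limma, all probes). It lay in the tissue channel, since Cy5 changed by -1.20 and Cy3 by 0.06. Its size is uncertain, as Cy5 in C middle intestine was 1.51-fold above the floor of OH middle intestine, with 2 of its 4 arrays well above background. Hoxa11 differed by -0.77 (adjusted p = 0.038 in limma, all probes), but its Cy5 was not above background on any array and differed by 0.03, while its reference Cy3 differed by 0.80.

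Hoxa11, Hoxa13 and Hoxb13, 3 of the 12 genes of paralogs 9 to 13, had far more signal in the reference than in the tissues. Well above background in Cy3 on all 16 arrays were 16 Hox genes, these 3 among them, whereas Hoxb9 and Hoxc12 were so on 0 arrays and Hoxd12 on 3. Hoxb13, a gene of the distal hindgut and prostate, had Cy3 signals of 6.88 to 7.58 on the log2 scale and Cy5 signals of 1.17 to 2.64, with Cy5 above background on 0 arrays. Hoxa13 had 6.29 to 6.87 in Cy3 and 1.48 to 4.06 in Cy5. Hoxa11 had 3.82 to 5.16 in Cy3 and 1.21 to 3.04 in Cy5.

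Hoxa11 and Hoxb13 thus belong to the 70 probes, 0.231% of all, that were above background in the reference on all 16 arrays and in no tissue sample. The labels describe the reference as stomach and middle intestine. Since the dyes were not swapped, a dye effect at these probes cannot be told apart from RNA that is in the reference alone. The colon gene Aqp8, a water channel, also had a lower signal in the tissues than in the reference, with mean log2 ratios of -3.47 and -3.35 in C and OH stomach and of -2.01 and -1.29 in C and OH intestine.

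**Figure D5:**
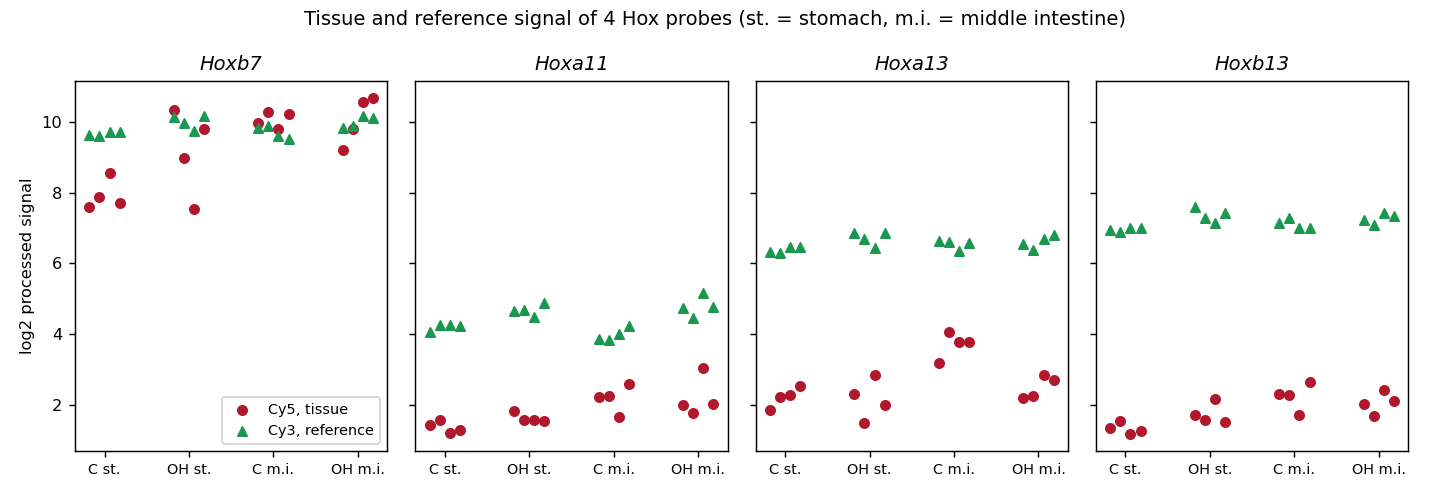
Processed Cy5 (tissue, circles) and Cy3 (common reference, triangles) signal on the log2 scale of Hoxb7, Hoxa11, Hoxa13 and Hoxb13 on each of the 16 arrays. For Hoxb7 both channels lie between 7.54 and 10.68, and for Hoxb13 the reference lies between 6.88 and 7.58 and the tissue below 2.65.

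The RefSeq promoter windows of the Hox genes, from 250 bases before to 50 bases after the start on the GRCr8 build, were found for 16 of the 30 members and were rich in CG dinucleotides, with a median of 21.5 compared with 7 in all 33465 promoters. Among the called genes with a window, the numbers were 19 for Hoxa3, 49 for Hoxd8 and 29 for Hoxa7, which is the RefSeq gene of the Hoxa9 probe. Among the tested genes that were not called, they were 9 for Hoxa2, 6 for Hoxc4, 12 for Hoxd4 and 27 for Hoxd9. The 250 bases before the start are shown for Hoxa7 and for Hoxc4, a called and an uncalled member, with CG in capitals, 28 times and 3 times. The number of genes is too small for a test, and methylation was not measured.

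Hoxa7, chr4:82648242-82648491, minus strand: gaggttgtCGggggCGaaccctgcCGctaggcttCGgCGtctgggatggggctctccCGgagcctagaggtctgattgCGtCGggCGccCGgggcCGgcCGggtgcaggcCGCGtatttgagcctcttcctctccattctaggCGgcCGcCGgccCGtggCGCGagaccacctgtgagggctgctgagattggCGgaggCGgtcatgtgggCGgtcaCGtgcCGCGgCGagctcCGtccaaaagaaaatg

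Hoxc4, chr7:136048809-136049058, plus strand: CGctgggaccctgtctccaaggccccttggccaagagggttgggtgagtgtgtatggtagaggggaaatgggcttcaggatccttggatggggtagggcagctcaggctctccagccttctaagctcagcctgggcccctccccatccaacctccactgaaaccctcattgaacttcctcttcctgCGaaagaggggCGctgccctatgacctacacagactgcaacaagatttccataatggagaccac

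The genes that act with or on Hox genes were taken as lists, and their counts stand against the 22.3% and 22.7% of all probes called higher and lower in C middle intestine, so that 3 of 17 or 1 of 11 is near or under this background. Of the ParaHox genes, the sister group of the Hox clusters, 3 of 5 measured genes entered the test. Cdx2, the intestinal master regulator, was higher in C middle intestine by 6.89 (standard error 0.11, adjusted p = 1.5e-14 in limma), with -5.34 in C stomach and 1.55 in C middle intestine, and Cdx1 was lower by 0.37 on the log2 scale (adjusted p = 0.023). Of the TALE cofactors, 7 of 9 entered the test, and among them Meis3 was higher in C middle intestine by 0.76 (adjusted p = 0.038).

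Of 11 tested retinoic acid genes, 1 was higher in C middle intestine and 3 in C stomach. The binding protein Crabp2 differed by -4.52 and the retinal dehydrogenase Aldh1a1 by -3.79, with adjusted p of 1.4e-07 and 2.5e-08 in limma. Of 17 Polycomb and trithorax genes, 3 were higher and 3 lower in C middle intestine, led by the methyltransferase Ezh2 with 1.13 and its paralog Ezh1 with -0.92 (adjusted p = 6.5e-05 and 0.00011 in limma). Of 5 gut mesenchyme regulators, 2 were higher and 2 lower, among which Isl1 differed by -3.70 and Barx1, a gene of stomach mesenchyme, by -2.55 (adjusted p = 7.2e-08 and 0.0005 in limma). Between OH and C, 0 genes of these lists passed the adjusted threshold in limma in either tissue.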

How the data were processed

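The 16 arrays hold 62976 spots each, 58717 of them no controls. The authors deposited the scanner output of Agilent Feature Extraction (version 10.10.1.1 in the file headers, 10.7.3.1 in the submitters' processing notes), with spot intensity, background-subtracted and Lowess-normalized processed intensity and marks per spot, and a table of log10 ratios, which equals the scanner ratios on 15 arrays and differs by up to 0.005 on OH stomach 1, whose scanner file is rounded. The log2 ratio of the processed signals, Cy5 over Cy3, was averaged over the spots of a probe without outlier spots, and 9197 of 30367 probes were left out as dim. A probe counts as well above background when at least 0.5 of its spots carry that mark. A model with 1 mean per group and no block was fitted by lmFit and eBayes (limma 3.58.1, R 4.3.3). The number of arrays limits the precision, and p-values measure the spread between these rats.

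The scripts were tested on simulated data. The Hox genes, gene lists and tests were chosen with earlier results of these data known. The genes given in full are those called between the C tissues, the 2 with the smallest p between OH and C in each tissue, and the smallest of the interaction. Others, such as Hoxb8, Hoxa6, Hoxa13 and Aqp8, were chosen after their values were seen. Symbols and coordinates are those of the array design (rn4), and RefSeq (GRCr8) gave names and promoter windows. Alternatives covered background correction, scaling, Cy5 alone, filters, blocks, array weights, the ANOVA with Tukey's test named in the methods, thresholds, probes per gene and leaving out each array. Other assays of the study were not analysed here. Values of 1 Hox gene and 1 listed cofactor are not reported here.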

Additional observations from a re-analysis of the deposited data

Results flagged for a closer look

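Among 52 groups of 4 arrays, the 13 tested Hox genes in 4 groups, 1 held an array far from the others, which about 1 in 20 groups would by chance. It was Hoxb2 in C stomach, with -2.81 in the second rat and -1.67 to -1.44 in the others, a gap of 0.831 of the range. This array stood apart in striated muscle genes, with a mean log2 ratio of -0.90 compared with 3.35 to 4.11 on the other C stomach arrays, and was the lowest of its group in fibroblast and stroma genes, -1.9, and in smooth muscle genes, -2.51. Whether these bear on Hoxb2 was not tested. Without this array Hoxb2 still differed between the C tissues, by 1.31 (adjusted p = 0.034 in limma). The reference channel held signal of posterior genes that the tissues did not show at the same level, with mean Cy3 values on the log2 scale of 7.17 for Hoxb13, 6.56 for Hoxa13 and 4.4 for Hoxa11, well above background on all 16 arrays each.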

How the results depend on the processing

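The count of 6 Hox genes higher in C middle intestine stayed within 1.5 times under 17 of 19 other settings. It became 10 without the filter on dim probes and 3 with only probes well above background on all 16 arrays. Hoxa3, Hoxb2 and Hoxd8 do not enter the latter setting, in which fewer genes were tested. Without any single array the count was 5 to 7. The count higher in C stomach was 0, and 2 with the smooth muscle covariate. In OH rats the count higher in middle intestine was 0, but 1 with Cy5 alone by quantile normalization or Aquantile scaling, 1 without adjustment, 2 with the covariate and 6 without OH stomach 1 and 4, and 0 to 4 without single arrays, with 4 without OH stomach 1 and 2 without OH middle intestine 1. The count higher in OH stomach was 0 under all 19 settings. Between OH and C the count was 0 in stomach, with 4 unadjusted, and 0 in middle intestine, with 2 without the filter, and the interaction count was 0, with 1 unadjusted. In these 3 comparisons leaving out any array gave 0. Beyond the changes shown here the cause was not tested. Hoxb6, Hoxb7, Hoxa3 and the Hoxa9 probe kept their call and direction between the C tissues under every setting that gave them a value, and no named gene reversed. Hoxd8 lost its call under 4 of 18 settings and Hoxb2 under 2 of 18.

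Detection on all 4 arrays by the milder mark of a positive and significant signal gave 21 Hox genes in C stomach, 19 in OH stomach, and 18 in each intestinal group, and detection on any array gave 16, 18, 18 and 15. The median C tissue difference was 1.62 for paralogs 1 to 3 and 0.75 for paralogs 9 to 13 over the tested genes alone, and 0.0423 for paralogs 9 to 13 with quantile-normalized Cy5 alone. Normexp correction with an offset of 50 lowered the differences of dim probes, for Hoxa3 from 1.72 to 0.37. Between the tissues of one treatment, arrays with the same replicate number had correlations of deviations of 0.058 to 0.25 in C and -0.12 to 0.32 in OH rats. Of 4 stomach arrays, 3 in C and 2 in OH correlated best with the intestinal array of their own number. Whether these tissues shared a rat is thus not settled. Between treatments, where the rats differ, the correlations ranged from -0.40 to 0.51. With a replicate block the counts were 6, 0, 0, 0, 0, 0 and 0.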
